A study of Arabidopsis thaliana with 12 samples.

Results

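Whole Arabidopsis thaliana seedlings of 7 days were compared with seedlings of 5 days. The 4 arrays of 7-day seedlings were set against the 4 arrays of 5-day seedlings, 8 of the 12 arrays in the series. Each of 4 groups gave 1 array to either side, so that every difference was taken within a group. The arrays of 6 days, 4 in all, served to show whether a change was gradual.

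The 4 groups were the wild type Columbia (Col) and the line CCA1-34, each harvested at an early and at a late time of day. CCA1-34 is an arrhythmic line that carries an excess of CCA1, a transcription factor at the core of the circadian clock. By the submitters' description Col seedlings grew at the early but not at the late time, and CCA1-34 seedlings at both. Neither the promoter of its transgene nor the number of independent lines is stated in the labels. All seedlings grew at 20 °C, about 100 to a dish, on medium with 3% sucrose, for 4 short days (8 h of light to 16 h of darkness), and then received 160 min pulses of red and blue light parted by 320 min of darkness. Harvest always fell 120 min into a dark period, which was 280 min past subjective dawn at the early time and 1240 min past it at the late time. Seedlings of 5 days were harvested on the first day of the pulses and those of 7 days on the third, so that age, the number of days under pulses and the day of harvest cannot be told apart. The labels do not say that the arrays came from separately sown cultures. No combination of age and group had a repeat array, so p-values for age set the change against its unevenness between the groups. Technical differences between arrays may be part of that unevenness and cannot be told apart from differences between lines or times of day.

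A young seedling lives at first on oil stored in its cotyledons, which is broken down by beta-oxidation and turned into sugar through the glyoxylate cycle. Chloroplasts then take over the supply of carbon while the root begins to take up minerals and the shoot meristem begins to make leaves. Flowering at this stage is held back by repressors, among them the MADS-domain factors FLC and SVP.

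Levels are deposited log2 values, so that a difference of 1 is a 2-fold change, and values for the 4 groups are always given in the order Col early, Col late, CCA1-34 early and CCA1-34 late. Array medians lay between 4.01 and 4.12. The CCA1 transcript stood at 2.47, 3.71, 8.46 and 8.89 at 5 days and at 6.37, 3.43, 9.16 and 10.18 at 7 days, and was thus higher in each CCA1-34 array than in the Col array of the same age and time. The mean level of 11 genes of light harvesting, photosystems and carbon fixation was 12.05 at 5 days and 12.01 at 7 days, and that of 10 genes of the root endodermis was 6.44 and 5.57, so that markers of shoot and root were both measured, as the label of whole seedlings states. The change from 5 to 7 days was widest in Col early. Its size cannot say whether the array of 5 or of 7 days was unusual. The share of probe sets that differed from 5 days by 1 or more was 4.58% upward and 4.04% downward in Col early, against 1.6% and 1.79% in Col late, 1.72% and 2.05% in CCA1-34 early and 1.28% and 1.41% in CCA1-34 late.

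Of 22746 probe sets tested, 102 (0.448%) differed between 7 and 5 days at an adjusted p under 0.05 (limma, Benjamini-Hochberg over all probe sets). Of these, 69 (0.303%) rose and 33 (0.145%) fell. The rises had a median of 0.88 and reached 2.53, the falls a median of -1.05 and reached -2.98, and 47 of the 102 changed by at least 1 (30 rises and 17 falls). Every one of the 102 had the same sign in all 4 groups, as had 13.1% (higher) and 11.9% (lower) of all probe sets. All 4 arrays of 7 days lay above all 4 of 5 days for 59 of the 69 (4.66% of all probe sets) and below them for 26 of the 33 (4.08% of all). In 13 of the 102 both age means lay below the median of the array medians (4.07), and 25 of the 69 rises started below it. Over all probe sets the median change was 0.0060, and 3714 (16.3%) had an unadjusted p under 0.05, 2083 of them higher (9.16%) and 1631 lower (7.17%).

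The adjusted p-values of the 102 lay between 0.0335 and 0.0485, close to the threshold, and the count depended on single arrays. It was 0 without any of the Col early, Col late or CCA1-34 early arrays of 5 days, and 0 without the CCA1-34 late array of 6 or of 7 days. It was 1 without CCA1-34 late at 5 days, 10 without Col early at 6 days, 10 without CCA1-34 early at 7 days and 184 without Col late at 6 days. Without the remaining 3 arrays it lay between 82 and 125. All 102 kept their direction whichever array was left out. They were chosen on these same arrays and had the same sign in every group, so this is a description and no further support. The 8 arrays of 5 and 7 days alone, with 3 residual degrees of freedom, gave 0 calls. With every array centred on its median, 45 probe sets rose and 42 fell.

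**Figure D1:**
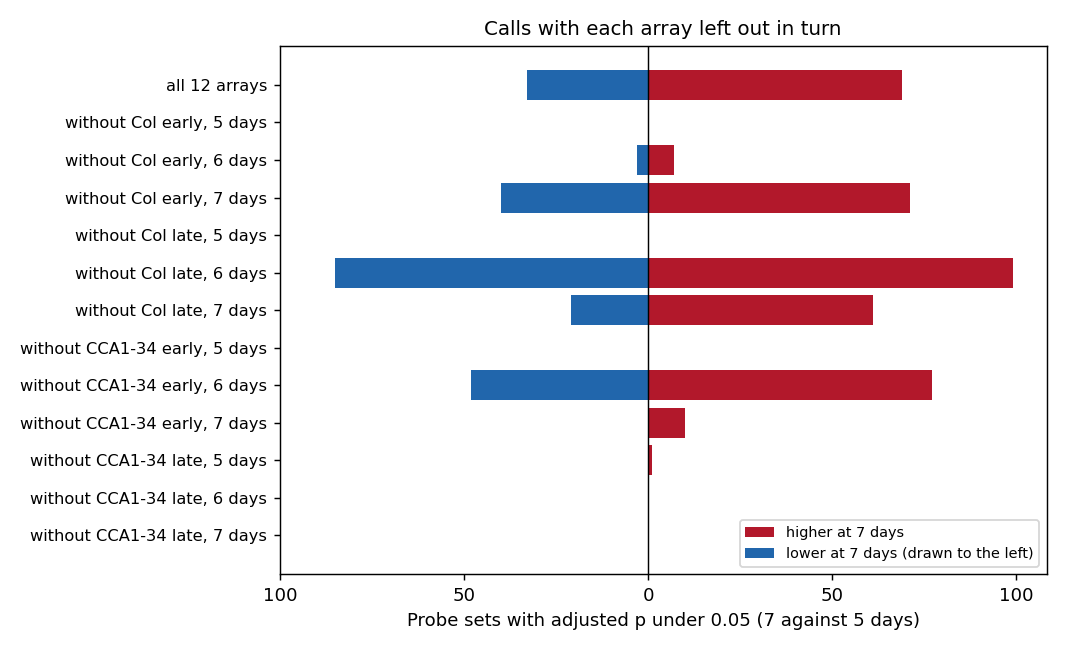
Number of probe sets past an adjusted p of 0.05 in 7 against 5 days with all 12 arrays and with each array left out in turn, higher at 7 days to the right and lower to the left. With all arrays 69 rose and 33 fell, and leaving out 1 array gave between 0 and 184 calls in all.

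The flowering repressor FLC rose in every group. It measured 3.27, 3.72, 3.65 and 4.03 at 5 days, 4.16, 4.43, 4.28 and 4.31 at 6 days and 4.71, 5.03, 5.01 and 4.78 at 7 days. No array of a later age overlapped with an earlier age, and the change from 5 to 7 days was 1.21 (SE 0.12, adjusted p = 0.0335, n = 4 arrays per age), or 2.32-fold. SVP, a MADS-domain factor known to act together with FLC, measured 5.87, 6.58, 6.00 and 6.61 at 5 days and 6.82, 7.99, 7.14 and 7.52 at 7 days. It was 2.14-fold higher at 7 days (SE 0.17 on the log2 scale, adjusted p = 0.0415), with no overlap between the ages, and its other probe set changed by 0.88 without passing (adjusted p = 0.0914). FLC and SVP were the only members of the phase change and flowering list to pass, of 22 measured. The median of that list was 0.02, and -0.04 without the Col early array of 7 days. Chosen after their values were seen, FT, the mobile flowering signal, had a change of -0.12 and SOC1, an activator that FLC represses, of 0.07. TOE2, an AP2-type repressor of flowering that was not on the list and was chosen after its values were seen, fell from 6.72–7.00 to 5.66–6.36, a change of -0.87 (SE 0.12, adjusted p = 0.0359).

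Further transcription factors rose. EBP, also called ERF72, of the ethylene response factor family, measured 6.13, 6.20, 6.68 and 6.47 at 5 days and 7.46, 7.56, 8.24 and 7.94 at 7 days (change 1.43, SE 0.15, adjusted p = 0.0335). Its ages did not overlap, and in all 4 groups it was already above 7 at 6 days. BZIP9, a basic leucine zipper factor, rose from 4.47, 5.13, 5.15 and 5.29 to 6.47, 6.73, 6.01 and 6.57 (change 1.43, adjusted p = 0.0359). LUX, a member of the evening complex of the clock, rose by 0.70 (SE 0.11, adjusted p = 0.0426), with 4.65 to 4.86 at 5 days and 5.04 to 5.88 at 7 days. The probe sets of BZIP9 and LUX are of the kind marked as able to detect several transcripts, although the files give each a single locus.

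MAM1, which lengthens the methionine chain in the synthesis of aliphatic glucosinolates, had the largest rise past the threshold among genes with a symbol. It measured 4.20, 5.21, 3.99 and 4.36 at 5 days, 6.13, 6.34, 5.32 and 6.62 at 6 days and 6.92, 6.16, 6.79 and 6.94 at 7 days. The 2 ages did not overlap (change 2.26, SE 0.30, adjusted p = 0.0359, 4.80-fold), and in Col late the level at 7 days was below that at 6 days. Of 16 measured glucosinolate genes, MAM1 alone passed. At 7 days 13 were higher and 3 lower (51.3% of all probe sets were higher). In all 4 groups 5 were higher (13.1% of all). Their median change was 0.33 against 0.0060 over all probe sets, and 0.18 without the Col early array of 7 days. Other genes of this list were chosen for mention after their values were seen. In the aliphatic branch the changes were 2.35 (BCAT4, an aminotransferase, adjusted p = 0.110), 1.75 (CYP83A1, adjusted p = 0.0755) and 1.13 (MYB28, a regulator of the branch, adjusted p = 0.160), each higher at 7 days in all 4 groups. In the indolic branch they were -0.24 (MYB34), -0.12 (CYP79B2), 0.16 (CYP79B3) and 0.04 (CYP83B1). The remaining measured genes of the list are not given, and a difference between the branches was not tested.

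Genes of membranes and signalling also rose. HA3, a plasma membrane proton pump, went from 5.83, 6.45, 5.75 and 6.02 to 7.84, 7.92, 6.56 and 7.55 (change 1.46, SE 0.20, adjusted p = 0.0364). XIP1, also called CEPR1, a receptor kinase for CEP peptides that acts in the vasculature, went from 4.68, 5.31, 5.09 and 5.29 to 6.23, 6.61, 5.87 and 6.55 (change 1.23, adjusted p = 0.0383). In both genes the ages did not overlap. CRK21, a cysteine-rich receptor-like kinase, rose by 1.56 (adjusted p = 0.0415), but its 5-day level in Col late, 4.08, was above the 7-day levels of 3.36 and 3.94 in CCA1-34. MT3, a metallothionein, rose by 1.55 (SE 0.22, adjusted p = 0.0383), from 7.92–8.42 to 9.30–10.30. AT4G00880, which the annotation also names SAUR31 of the small auxin-up RNA family, rose by 1.49 (adjusted p = 0.0344). Auxin genes outside the rule for naming, chosen after their values were seen, were the repressor IAA14 (1.02, adjusted p = 0.0435), the response factor ARF2 (0.65, adjusted p = 0.0415; its other probe set 0.48, adjusted p = 0.301), ENP, which acts in organ formation (1.09, adjusted p = 0.0344), and PILS3, an auxin carrier of the endoplasmic reticulum given as AT1G76520 (1.01, adjusted p = 0.0409).

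Of the 15 largest rises, 7 belonged to loci for which neither the files nor the annotation used here gives a symbol. AT1G23130 had the largest, from 3.79, 5.06, 2.30 and 2.52 to 7.58, 7.98, 4.01 and 4.22. It changed by 2.53 (SE 0.38, adjusted p = 0.0415, 5.77-fold), and its 7-day levels in CCA1-34 lay below the 5-day level of Col late. AT1G67870 went from 6.83, 7.12, 6.66 and 6.89 to 8.74, 9.33, 7.93 and 8.67 with no overlap, and its change of 1.79 had an adjusted p of 0.0335. AT2G47880 (1.80), AT4G00780 (1.79), AT1G64370 (1.82), AT1G62500 (1.58) and AT3G45160 (1.39) completed the group, with adjusted p-values of 0.0344 to 0.0415. Of the 102 probe sets, 7 have several loci or none, among them the probe set shared by AT5G38940 and AT5G38930, noted after its values were seen. It lay at 2.06 to 2.33 at 5 days, 1.89 to 3.08 at 6 days and 3.05 to 5.27 at 7 days (change 2.33, adjusted p = 0.0426).

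**Figure D2:**
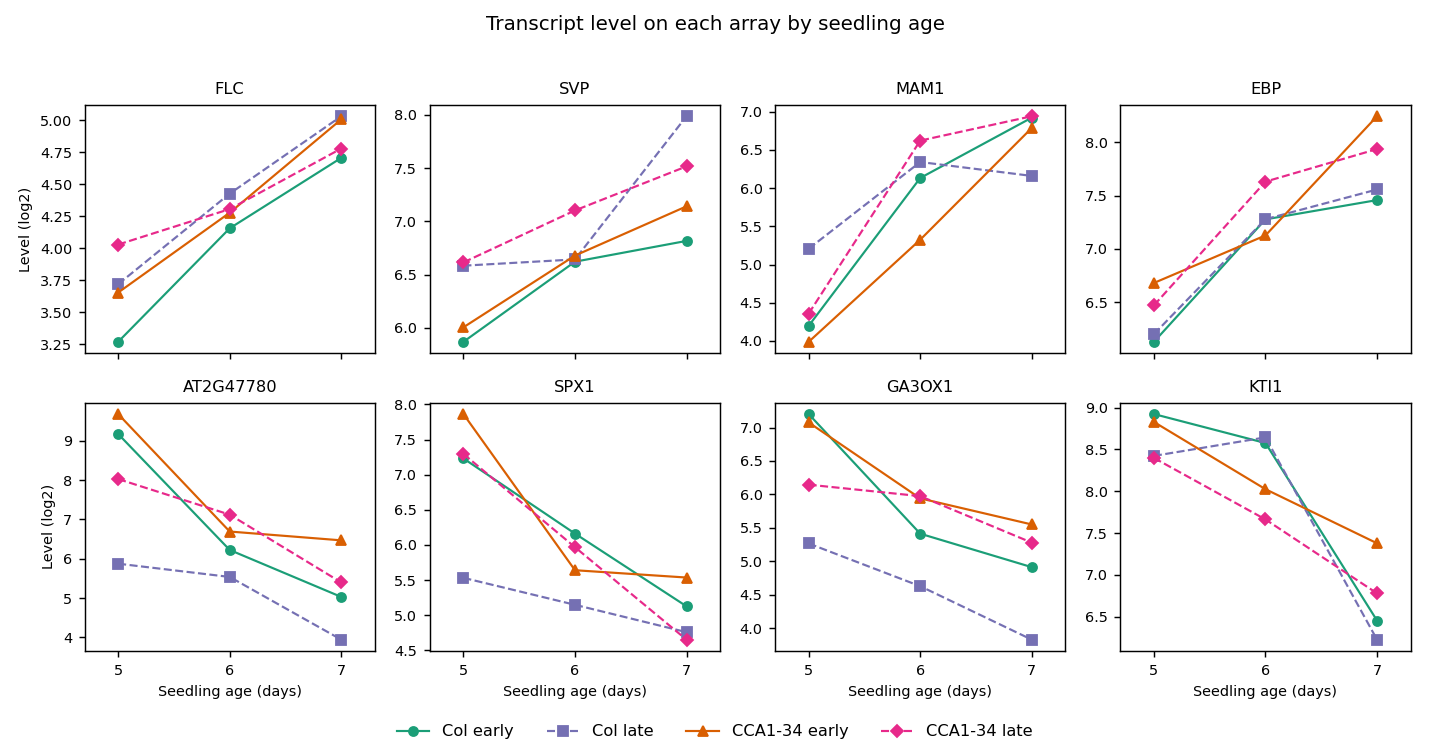
Level (log2) of 8 genes past the threshold on each of the 12 arrays against seedling age in days, with 1 line per group and 1 array per point; the vertical axes differ between panels and do not start at 0. FLC, SVP, MAM1 and EBP were higher at 7 than at 5 days and AT2G47780, SPX1, GA3OX1 and KTI1 lower, in every group.

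The largest fall was that of AT2G47780, a locus without a symbol, from 9.17, 5.88, 9.68 and 8.03 to 5.03, 3.94, 6.47 and 5.40. It changed by -2.98 (SE 0.44, adjusted p = 0.0415, 7.88-fold). The 5-day level of Col late was below the 7-day level of CCA1-34 early, so the ages overlapped across groups while every group fell. AT5G20790 fell from 5.59, 4.34, 6.80 and 5.97 to 3.59, 2.75, 3.68 and 3.19, with no overlap (change -2.37, adjusted p = 0.0359).

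Genes of phosphate starvation were lower at 7 days. SPX1, a sensor protein that restrains the phosphate starvation response when phosphate is ample and whose transcript rises on starvation, measured 7.23, 5.53, 7.86 and 7.30 at 5 days, 6.16, 5.15, 5.64 and 5.97 at 6 days and 5.13, 4.76, 5.54 and 4.65 at 7 days. Its change was -1.96 (SE 0.31, adjusted p = 0.0435), a 3.90-fold fall, and the ages overlapped only in that Col late at 5 days (5.53) was just below CCA1-34 early at 7 days (5.54). SPX1 was the only gene of the list to pass, of 11 measured. Of the 11, 10 were lower at 7 days, 6 of them in all 4 groups (11.9% of all probe sets), and 8 had an unadjusted p under 0.05 (7.17% of all). The median was -1.06 against 0.0060 over all probe sets. By mean over members the change was -0.35 and -0.52 in Col, early and late, and -1.97 and -1.48 in CCA1-34. PS2 and MGD2 were chosen for mention after their values were seen. The phosphatase PS2 measured 4.74, 3.82, 7.04 and 6.36 at 5 days and 4.59, 2.43, 2.84 and 2.21 at 7 days (change -2.48, adjusted p = 0.127), and MGD2, which makes galactolipids in place of phospholipids, changed by -1.41 (adjusted p = 0.0890). PAP17, a purple acid phosphatase of the list, had no probe set of its own. The probe set that the files assign both to its locus AT3G17790 and to AT3G17800 went from 7.12–8.95 to 5.23–7.17 (change -1.84, adjusted p = 0.0435). PAP10, another purple acid phosphatase, fell by 0.91 on the log2 scale (SE 0.11, adjusted p = 0.0344). Both were noted after their values were seen.

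The hormone gene GA3OX1, whose enzyme makes bioactive gibberellin, measured 7.20, 5.27, 7.08 and 6.15 at 5 days and 4.91, 3.83, 5.55 and 5.28 at 7 days. Every group fell (change -1.53, SE 0.23, adjusted p = 0.0415), although the 5-day level of Col late lay below the 7-day levels of CCA1-34. Of the 14 genes of the gibberellin and brassinosteroid list it alone passed, 8 were higher and 6 lower, and the median of the list was 0.02, or 0.14 without the Col early array of 7 days. GASA4, a gibberellin-induced gene, changed by -0.60, and GID1A, a gibberellin receptor, by 0.41. These 2 were chosen after their values were seen, and neither passed.

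The other falls were spread over genes of different kinds. KTI1, a Kunitz trypsin inhibitor, went from 8.92, 8.42, 8.83 and 8.40 to 6.45, 6.22, 7.38 and 6.78, and at 6 days it was still at 8.58 and 8.64 in Col but at 8.02 and 7.66 in CCA1-34. Its change was -1.94 (SE 0.27, adjusted p = 0.0383). UPB1, a bHLH factor that sets the border between division and elongation in the root, fell from 4.03–4.42 to 2.59–3.37 (change -1.24, adjusted p = 0.0383). ATG8H of autophagy fell by 1.11 on the log2 scale (adjusted p = 0.0415), VTC4, an enzyme of ascorbate synthesis, by 1.06 (adjusted p = 0.0364), and PCME, an isoprenylcysteine methylesterase, by 1.12 (adjusted p = 0.0429). SS3, annotated as a strictosidine synthase, changed by -1.06 (adjusted p = 0.0405). Its mean level was 4.06 at 5 days and 3.00 at 7 days, both below the median of the array medians (4.07). AT2G36885 (-1.82), AT1G52100 (-1.46), AT5G35740 (-1.35), AT1G20070 (-1.20) and AT4G32460 (-1.15) are loci without a symbol and completed the 15 largest falls. AT2G36885 measured 6.86 to 7.18 at 5 days, 5.13 to 6.59 at 6 days and 4.85 to 5.57 at 7 days.

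Markers of root cell types were lower on the arrays of 7 days, beside the lower phosphate and UPB1 transcripts. Of 10 genes of the root endodermis and Casparian strip, 9 were lower, with a median of -0.74. Of these, 7 were lower in all 4 groups (11.9% of all probe sets). CASP5, which builds the Casparian strip, measured 6.82, 6.15, 7.22 and 7.11 at 5 days and 2.27, 4.17, 5.85 and 5.06 at 7 days (change -2.49, SE 0.46, adjusted p = 0.0594), and CASP4 changed by -1.54 (adjusted p = 0.0811). The mean level of the 10 genes lay at 6.04 to 6.86 at 5 days and at 4.92 to 6.10 at 7 days. All 7 root hair and epidermis genes were lower, 6 of them in all 4 groups (11.9% of all probe sets), with a median of -0.89. Their mean level went from 5.12–5.62 to 4.11–5.04. EXPA7, a root hair expansin, changed by -1.20 (adjusted p = 0.151) and the wall protein PRP3 by -1.31 (adjusted p = 0.235). Of these 17 genes 0 passed and 12 had an unadjusted p under 0.05, all of them lower (7.17% of all probe sets). The 2 measured genes of the root meristem, PLT1 and PLT2, changed by -0.06 and -0.12. Their mean level was 2.38 at 5 days and 2.29 at 7 days, well below the array medians, so little can be read from them. In whole seedlings fewer cells of a type and less RNA per cell cannot be told apart, and the part of root cells in the phosphate and UPB1 results was not tested.

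Genes of seed oil breakdown and the glyoxylate cycle were mostly lower at 7 days. Of 20 measured, 16 were lower, 12 of them in all 4 groups (11.9% of all probe sets), and the median was -0.40. At an unadjusted p under 0.05, 11 were lower (7.17% of all) and 1 was higher (9.16% of all). After adjustment 0 passed (0.448% of all). ICL, the isocitrate lyase of the glyoxylate cycle, stood at 11.07, 8.14, 10.91 and 8.57 at 5 days and at 6.98, 5.34, 7.60 and 7.70 at 7 days. Its change was -2.77 (SE 0.57, adjusted p = 0.0731), and the early arrays of 5 days were the highest. MLS, the malate synthase, was on the same side at 10.20, 7.08, 9.40 and 7.96 against 5.26, 5.51, 7.29 and 7.81 (change -2.20, adjusted p = 0.155). PMDH2, a peroxisomal malate dehydrogenase, was higher in all 4 groups (0.74), and PCK1, which leads from the cycle to sugar, changed by -0.04. Both were chosen after their values were seen. Of 16 seed storage, oleosin and LEA genes, 8 were higher and 8 lower (median -0.01), with OLEO3, an oleosin of oil bodies, at -1.43 (adjusted p = 0.0703) and M17, an LEA gene, at 1.86 (adjusted p = 0.117).

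**Figure D3:**
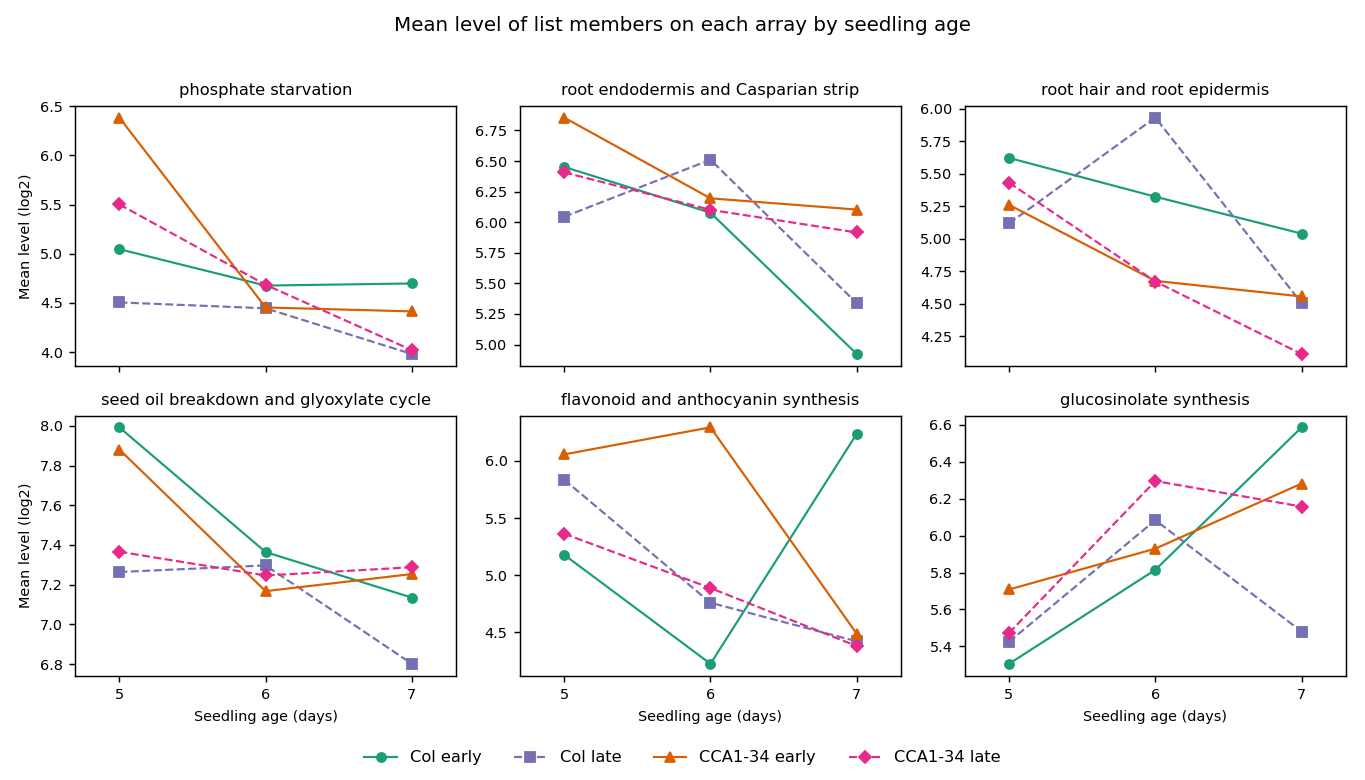
Mean level (log2) over the measured members of 6 gene lists on each of the 12 arrays against seedling age in days, with 1 line per group; the vertical axes differ between panels and do not start at 0. The phosphate and both root lists were lower at 7 than at 5 days in all 4 groups, while the flavonoid list was higher at 7 days in Col early alone.

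Flavonoid and anthocyanin genes were lower in 3 groups and higher in Col early. By mean over 20 members the change was 1.06 in Col early, against -1.41 in Col late and -1.57 and -0.98 in CCA1-34, with a median of -0.69 over all groups and -1.50 without the Col early array of 7 days. UGT75C1, an anthocyanin glucosyltransferase, measured 5.51, 6.19, 6.90 and 5.52 at 5 days and 6.75, 3.53, 3.33 and 3.25 at 7 days (change -1.82, adjusted p = 0.389). ELIP1, an early light-induced protein, followed the same pattern with 5.41, 4.63, 7.57 and 5.56 against 7.77, 2.29, 2.76 and 2.54 (change -1.95, adjusted p = 0.528). On that same Col early array the darkness and sugar starvation list was lower than at 5 days by 1.19 on average, the PIF and shade list by 1.16 and the auxin list by 0.96, while in Col late these lists were higher by 1.12, 0.92 and 0.38. ASN1, the dark-induced asparagine synthetase, changed by -4.09 in Col early and by 4.90 in Col late. Without that array the medians of the 3 lists were 0.48, 0.68 and 0.29, against 0.08, 0.21 and -0.18 with it. The difference between Col early and Col late was not tested on its own. In CCA1-34 early these 3 lists were lowest on the array of 6 days, which was used to show gradualness. The mean level of the darkness list was 4.94 there, against 5.99 at 5 days and 5.83 at 7 days. For the PIF list it was 5.39 against 6.29 and 6.47, and for the auxin list 4.79 against 5.44 and 5.83. The flavonoid list stood at 6.29 on that array, against 6.06 and 4.49. The cause was not tested.

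Several lists were higher on balance at 7 days. Of 15 clock genes 14 were higher, 4 of them in all 4 groups (13.1% of all probe sets). Their median was 0.50 (0.29 without the Col early array of 7 days). LUX alone passed, and TOC1, a repressor at the core of the clock, changed by 0.62 (adjusted p = 0.0790; chosen after its values were seen). The CCA1 transcript itself changed by 1.40 (SE 0.55, adjusted p = 0.258), with 3.89 and -0.28 in Col, early and late, and 0.70 and 1.29 in CCA1-34. Of 9 cytokinin response genes 8 were higher, with a median of 0.23. ARR7, a type-A response regulator, measured 3.32, 5.02, 3.84 and 4.54 at 5 days and 4.43, 5.91, 5.59 and 6.17 at 7 days (change 1.34, SE 0.23, adjusted p = 0.0543), and ARR6 changed by 0.52 (adjusted p = 0.0775). Of 10 genes of sulfate uptake and sulfur starvation 9 were higher, with a median of 0.38 that became -0.06 without the Col early array of 7 days.

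Of 20 genes of shoot meristem and leaf growth 15 were higher and 5 lower, and 0 passed. Their median was 0.08, and 0.02 without the Col early array of 7 days. ANT, an AP2-type factor of organ growth, measured 4.70, 4.71, 4.40 and 4.21 at 5 days and 5.32, 5.48, 5.02 and 4.94 at 7 days, without overlap (change 0.69, SE 0.12, adjusted p = 0.0528). STM, which maintains the shoot meristem, had a change of 0.58 (adjusted p = 0.105). In the list of xylem, secondary wall and phloem the phloem genes SEOR1 (1.08, adjusted p = 0.0755), APL (0.66, adjusted p = 0.154) and SUC2 (0.60, adjusted p = 0.140; chosen after its values were seen) had the 3 largest changes of 16. Of the 16, 10 were higher and 6 lower, 0 passed, and the median was 0.11, or 0.06 without the Col early array of 7 days. Of 13 genes of stomatal lineage and trichomes 9 were lower, with a median of -0.35. Of these, 6 were lower in all 4 groups (11.9% of all probe sets). SDD1, a protease that limits stomatal density, changed by -0.69 (adjusted p = 0.317) and EPF2, a peptide with a like function, by -0.63 (adjusted p = 0.148).

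Among organelle transcripts, ATMG01370 of the mitochondrial genome passed, with 3.39, 3.43, 3.21 and 3.81 at 5 days and 4.69, 4.55, 4.03 and 5.20 at 7 days (change 1.16, adjusted p = 0.0415). Of 65 mitochondrial genes 40 were higher, with a median of 0.03. Of 72 chloroplast genes 49 were higher, 19 of them in all 4 groups (13.1% of all probe sets), 0 passed, and the median was 0.21. The 2 with the largest change were ATCG00570 (1.19, adjusted p = 0.0598) and ATCG00580 (1.15, adjusted p = 0.0989).

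The remaining lists had medians between -0.24 and 0.21, and 0 of their members passed. The medians were 0.05 for cell division and DNA replication, 0.02 for wall loosening and primary wall, 0.01 for nitrogen, -0.02 for leaf senescence, -0.05 for jasmonate and wounding, 0.14 for light signalling, -0.19 for chlorophyll synthesis and -0.24 for low oxygen. Without the Col early array of 7 days the nitrogen list had a median of 0.02 and the wall list of 0.06, while others moved further. Cell division then stood at 0.13, leaf senescence at -0.19, jasmonate at -0.33, chlorophyll synthesis at -0.34 and low oxygen at -0.33, and light signalling changed sign to -0.07. Single members reached large values with wide spread. COR15A, a cold-regulated protein, measured 3.85, 4.60, 5.02 and 5.85 at 5 days and 8.99, 8.47, 6.49 and 7.83 at 7 days (change 3.11, SE 0.89, adjusted p = 0.140). Its ages did not overlap, and the change of 3.11 was the largest rise that did not pass. Its list, of cold, dehydration and abscisic acid, lay on the other side, with 14 of 18 members lower and a median of -0.24 (-0.32 without the Col early array of 7 days). IRT1, the iron transporter of the root epidermis, was at 1.74 to 1.93 at 5 days and at 1.90, 4.30, 2.52 and 5.66 at 7 days (change 1.79, adjusted p = 0.173). IRT2, a related transporter of the same list, was lower in all 4 groups, at 3.92 to 4.96 at 5 days and 2.47 to 3.44 at 7 days (change -1.59, adjusted p = 0.184). GPT2, a plastid sugar phosphate transporter, had a change of -2.13 (adjusted p = 0.124), and BAM3, a plastid beta-amylase of the same list, was 4.01-fold higher (adjusted p = 0.402), with log2 changes of 5.65 in Col early and between -0.03 and 1.44 in the other groups. XTH33, an enzyme of wall xyloglucan, had a change of -1.76 (SE 0.32, adjusted p = 0.0581). Of 12 touch and handling genes 11 were higher, with a median of 0.15 that became -0.03 without the Col early array of 7 days, and of 13 heat shock genes 10 were lower, with a median of -0.21.

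**Figure D4:**
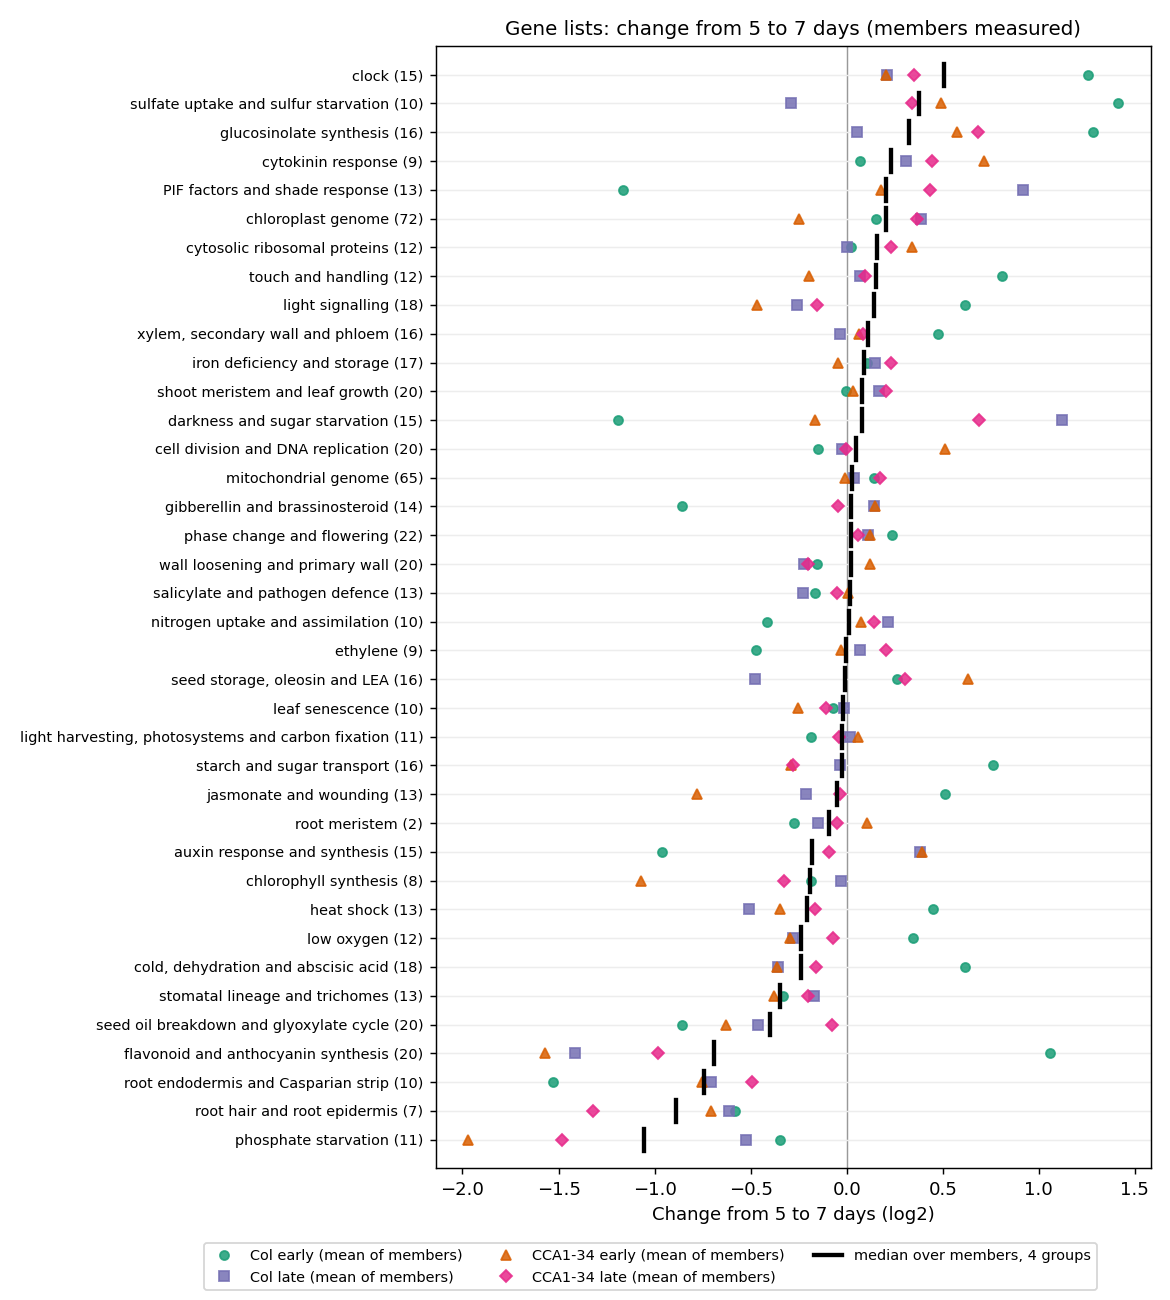
Change from 5 to 7 days (log2) in 38 gene lists with the number of measured members in brackets; symbols are the mean over members in each group and the black bar is the median over members of the change averaged over the 4 groups. Phosphate starvation (-1.06), root hair (-0.89) and root endodermis (-0.74) had the lowest medians and the clock (0.50) the highest with all arrays. Col early lies apart from the other groups in several lists, and without its array of 7 days flavonoid synthesis (-1.50) was lowest, ahead of phosphate starvation (-1.27), and PIF factors and shade (0.68) highest, with darkness (0.48) also above the clock (0.29).

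The arrays of 6 days showed how the change was spread over the 2 days. For 99 of the 102 called probe sets the mean at 6 days lay between those at 5 and 7 days, as it did for 44.2% of all, and for 67 it did so within each of the 4 groups (1.86% of all). Since the 102 were chosen for their difference between the ends, these counts are a description. By 6 days a median of 46.9% of the change had taken place (quartiles 31.4% and 60.9%). The first step was the larger in 43 and the second in 59. EBP belonged to the first kind, with 0.96 of its 1.43 reached by 6 days, as did MAM1 with 1.67 of 2.26 and AT1G64370 with 1.35 of 1.82. KTI1 belonged to the second kind, with a step of -0.42 followed by -1.52. FLC took nearly equal steps of 0.62 and 0.59.

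Tested on its own, neither step gave a call after adjustment. For 6 minus 5 days 0 probe sets passed (lowest adjusted p = 0.602; 1 without CCA1-34 early at 6 days) and 1741 (7.65%) had an unadjusted p under 0.05, and for 7 minus 6 days 0 passed (lowest adjusted p = 0.251) and 2006 (8.82%) did. The departure of 6 days from the midpoint of 5 and 7 days gave 0 calls as well (lowest adjusted p = 0.955), with 1052 probe sets (4.62%) at an unadjusted p under 0.05, among them 17 of the 102. In the lists, the phosphate genes had a median of -0.74 in the first step and -0.26 in the second, whereas the endodermis genes had -0.13 and -0.65 and the root hair genes -0.25 and -0.63. In Col late the mean level of both root lists was higher at 6 than at 5 days, at 6.51 against 6.04 and at 5.93 against 5.12.

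**Figure D5:**
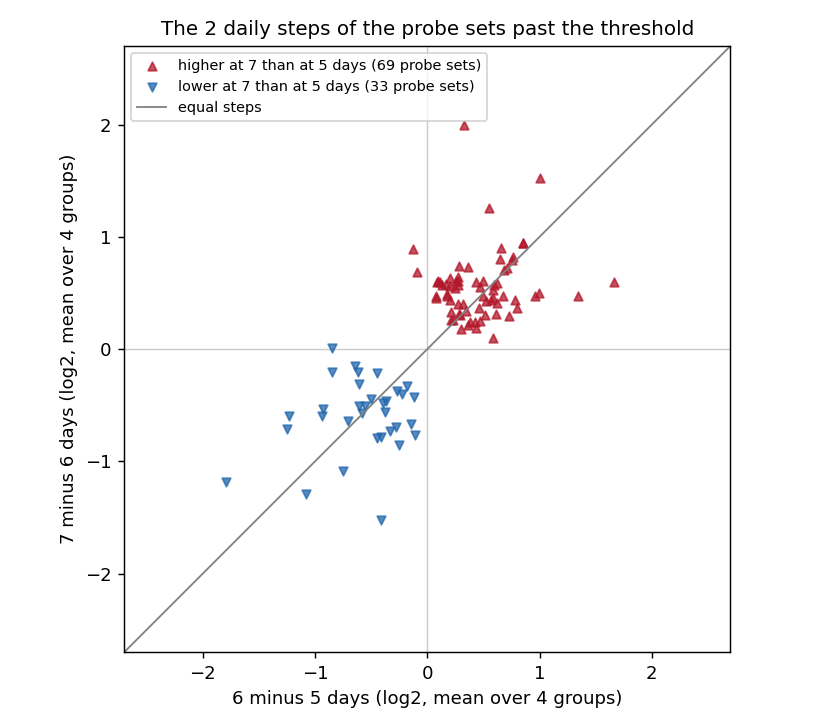
Change from 6 to 7 days against change from 5 to 6 days (log2, means over 4 groups) for the 102 probe sets past the threshold, 69 higher and 33 lower at 7 days; the grey diagonal marks equal steps. The probe sets were chosen for the sum of both steps, and 99 of them lie in the quadrants in which the steps have the same sign.

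The change from 5 to 7 days was then compared between the lines. Age by line and age by time of day had separate fits, so differences of the other kind counted in the spread of each. For CCA1-34 minus Col 0 probe sets passed (lowest adjusted p = 0.520) and 593 (2.61%) had an unadjusted p under 0.05, among them 10 of the 102. The count was 125 without Col late at 7 days and 0 without any other array. The smallest p belonged to AT5G10120, which changed by -0.40 and -0.80 in Col and by 2.19 and 1.63 in CCA1-34 (difference 2.51, SE 0.24, adjusted p = 0.520). PEPC1, a phosphatase of phosphoethanolamine and phosphocholine, followed. It was at 4.52 and 3.82 in CCA1-34 at 5 days and between 1.93 and 2.18 on the other 10 arrays. ACS4, an enzyme of ethylene synthesis, changed by -0.34 and -0.35 in Col and by 1.24 and 1.05 in CCA1-34, AT1G04560 by -1.35 and -1.53 against 1.24 and 0.49, and AT5G66780 by -1.66 and -2.03 against 0.00 and -0.22. None of these differences passed (adjusted p of 0.758 to 1.00).

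Between the times of day, late minus early, 0 probe sets passed (lowest adjusted p = 0.463) and 1463 (6.43%) had an unadjusted p under 0.05, among them 6 of the 102. The count was 164 without CCA1-34 early at 7 days and 0 without any other array. PORA, the light-repressed enzyme that reduces protochlorophyllide in dark-grown seedlings, had the smallest p. It stood at 9.10 and 9.33 on the early arrays of 5 days, at 3.85 and 5.62 on the late ones, and between 3.59 and 4.80 on all arrays of 6 and 7 days. Its change was -5.49 and -5.24 at the early time and -0.11 and -1.53 at the late time (difference 4.55, SE 0.43, adjusted p = 0.463). SULTR3;2, of the sulfate transporter family, showed a like order with -2.43 and -2.64 early and -0.91 and -1.22 late (difference 1.47, adjusted p = 0.743). AT5G45460 (difference 1.50), PDE312 (difference 1.97) and AT1G04780 (difference 1.61) did not pass either (adjusted p = 0.743), and the latter 2 were lower at 7 days at the early time and higher at the late time in both lines.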

How the data were processed

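Transcripts were measured on Affymetrix arrays, 1 per sample, from 5 ug of total RNA. The deposited values are log2 values that the authors made with RMA, per the file headers; the submitters' processing notes also name RMA. No version of it was stated. This method makes the distributions of arrays alike, so that a shift of most transcripts one way would be reduced. The series-wide table was identical to the arrays' own files (0 of 273720 values differed). Of 22810 probe sets, 64 controls were left out. Of the rest, 21361 have 1 locus, 885 several and 500 none, and 9055 single-locus probe sets received a symbol from NCBI's TAIR10.1 table, in which 21048 were found. The number of arrays limits the precision, and detection calls were not used.

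Groups came from titles and ages from the labels. The fit (limma 3.58.1 in R 4.3.3, lmFit and eBayes without trend, two-sided) used all 12 arrays with age and group as factors and 6 residual degrees of freedom. Its median residual SD was 0.183. Interactions of age with line or time had their own fits. Benjamini-Hochberg adjustment ran over 22746 probe sets, with a threshold of 0.05. The code was tested on simulated data.

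Members, tests and the 38 gene lists were chosen with earlier results of these data known. Genes were named by rule: in each direction the 15 largest changes that passed with 1 sign in all 4 groups, the 5 smallest p of each interaction, of each list up to 4 members that passed or else the 2 with the largest change, and CCA1. Each locus is represented by its brightest single-locus probe set. The alternatives tried were other forms of age and group, array weights, intensity trend, a filter on dim probe sets (mean under 4.07), scaling, and fewer arrays.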

Additional observations from a re-analysis of the deposited data

Results flagged for a closer look

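Among the 4 arrays of either age, 214 sets of values of named genes were examined for an array far from the other 3, and 9 were found. For arrays of the same condition chance alone would flag about 1 in 20 such sets. Here the 4 arrays of an age differ in line or time of day. A flagged value therefore cannot be told apart from a difference between groups. The values are given without an explanation, and their cause was not tested.

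In Col early at 7 days UGT75C1 (6.75 against 3.25 to 3.53 on the other arrays), UGT79B1 (6.07 against 3.28 to 3.40), both of anthocyanin synthesis, and ELIP1 (7.77 against 2.29 to 2.76) stood high. In Col late at 7 days NAP, a factor of leaf senescence, stood high (3.77 against 3.42 to 3.47) and SZF1, a zinc finger gene of the handling list, low (5.25 against 5.67 to 5.72). In Col late at 5 days PIF5, a growth-promoting bHLH factor, stood low (4.04 against 6.64 to 7.03) and PSBO2, a photosystem subunit, high (10.47 against 10.07 to 10.08). In CCA1-34 late PAO, an enzyme of chlorophyll breakdown, stood low at 5 days (6.00 against 6.37 to 6.43) and PEPC1 low at 7 days (1.97 against 2.05 to 2.06). These PEPC1 levels all lay well below the median of the array medians (4.07), so little can be read from the gap.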

How the results depend on the processing

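No paired analysis was possible because the replicate number of the labels is the age itself, and the pairing of ages within a group is already in the fit. The count of 69 rises and 33 falls moved with the setting. It was 0 and 0 on the arrays of 5 and 7 days alone, 0 and 0 in Col alone, in CCA1-34 alone and at the late time alone, and 0 and 1 at the early time alone. It was 123 and 56 with a straight line over the ages, 24 and 9 with the group left out, 23 and 9 with the group as a random effect, and 738 and 416 with array weights. Without dim probe sets 41 rose, and with median centring 45 rose. Without Col early at 7 days and CCA1-34 early at 6 days together it was 274 and 203, with 96 of the 102 among them. Leaving out 1 array gave 0 to 99 rises and 0 to 85 falls. The counts of 0 for 6 minus 5 days, age by line and age by time ranged over 0 to 1, 0 to 125 and 0 to 164, the highest coming without CCA1-34 early at 6 days, Col late at 7 days and CCA1-34 early at 7 days. The causes were not tested.

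All 102 kept their direction in every setting in which they were tested, which is a description, since they were chosen on these same arrays. Each of the 34 named genes past the threshold passed in 1 to 6 of the 12 fits that leave out 1 array, with highest adjusted p-values of 0.114 to 0.190, while their changes moved by at most 1.22 times. Without dim probe sets only 29 of the 34 were left to test, and all 29 passed. Of 65 named genes that did not pass, 23 did so under some alternative. The list medians were recomputed after seeing the data. Of 9 lists with a median of at least 0.3 either way, the sulfate list changed sign (-0.06 to 1.05), and phosphate ranged from -1.91 to -0.32. The number of arrays, 4 per age, limits what could be called.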
